A study of Mus musculus with 2 samples.

Results

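The semaphorin, plexin, slit, roundabout, ephrin, Eph receptor, netrin and Unc5 genes were compared between TAZ-deficient and wild type whole lungs of mouse embryos. All lungs were taken at E15.5 (E stands for embryonic day). The members were all probe sets assigned to exactly 1 gene whose symbol begins with Sema, Plxn, Slit (Slitrk genes left out), Epha, Ephb, Efna, Efnb or Unc5, or is Robo1, Robo2, Robo3, Ntn1, Ntn4 or Nrp2. They were 146 probe sets of 66 genes, among 45101 probe sets in all and 18193 genes with a probe set of their own. The rule reads symbols only, and 3 of the 66 match by name without being guidance genes: Unc50, a Golgi membrane protein gene, Unc5cl, a death domain gene, and Plxna4os1, an antisense transcript.

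The study used 2 arrays, a wild type array and a TAZ-deficient array, with littermates as the wild type. Each array was hybridised with a pool of 4 total RNA samples, so that each group was 1 pool on 1 array and no difference has a replicate check, a test or a p-value. TAZ, the protein of Wwtr1, is a transcriptional coactivator held back by the Hippo kinases, and it reaches DNA through TEAD transcription factors. How the deficiency was made is not given in the sources used here. Wwtr1 followed the labels: its brightest probe set dropped from 791.2 signal units in the wild type pool to 11.3 in the other, a difference of at least 52.1-fold. Markers of lung epithelium (Sftpc 4142.5 and 4121.5, Epcam 1287.4 and 1335.8) and lung mesenchyme (Tbx4 970.0 and 993.5, Wnt2 583.3 and 634.9) were present in both pools. All 5 listed markers of each tissue were above the floor defined below. The other mesenchyme markers were Col1a1 (896.8 and 974.4), Pdgfra (766.7 and 715.9) and Tbx5 (116.8 and 93.1), of which Pdgfra and Tbx5 were lower in the TAZ-deficient pool.

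Guidance molecules are ligands and receptors that tell growing axons, vessels and epithelial buds where to go, mostly by repulsion. Semaphorins signal through plexins, with neuropilins as co-receptors of the secreted class, slits through roundabout receptors, and netrins through Dcc, neogenin and Unc5 receptors. Ephrins are held in the membrane, the A type by a lipid anchor and the B type by a transmembrane domain, and bind Eph receptor tyrosine kinases on the neighbouring cell. In the developing lung these families are known from branching of the airway, patterning of vessels and ingrowth of nerves.

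Promoter sequences of 3 members are shown because the results turn on the first 2, the semaphorin and the plexin with the lowest ratios, and because Epha2 holds more matches than any other member to the TEAD core motif. The motif searched was GGAATG on both strands, so that it also reads CATTCC, and matches are in capitals. The search ran over windows from 250 bases before to 50 bases after a gene's start. The sequences are RefSeq's, from build GRCm38.p6, and show the 250 bases before the start, 5' to 3' on the strand of the gene. The Sema3g stretch is chr14:31217623-31217872 on the plus strand, the Plxnc1 stretch chr10:94944846-94945095 on the minus strand and the Epha2 stretch chr4:141300971-141301220 on the plus strand.
Sema3g: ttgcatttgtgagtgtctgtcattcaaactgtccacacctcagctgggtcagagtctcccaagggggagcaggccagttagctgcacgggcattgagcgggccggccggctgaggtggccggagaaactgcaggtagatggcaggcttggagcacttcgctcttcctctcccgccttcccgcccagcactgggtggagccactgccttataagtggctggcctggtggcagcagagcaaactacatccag
Plxnc1: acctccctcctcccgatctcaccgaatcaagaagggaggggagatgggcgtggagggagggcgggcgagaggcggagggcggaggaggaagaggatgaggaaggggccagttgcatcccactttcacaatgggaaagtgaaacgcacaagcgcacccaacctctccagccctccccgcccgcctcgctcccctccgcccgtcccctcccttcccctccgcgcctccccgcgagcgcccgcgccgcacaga
Epha2: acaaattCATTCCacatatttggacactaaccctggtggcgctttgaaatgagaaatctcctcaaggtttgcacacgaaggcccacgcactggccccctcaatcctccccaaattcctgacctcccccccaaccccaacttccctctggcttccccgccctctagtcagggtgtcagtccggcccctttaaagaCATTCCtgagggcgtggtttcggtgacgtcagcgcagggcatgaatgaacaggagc

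The Sema3g and Plxnc1 windows had no match, and the Epha2 window had 2, both reading CATTCC. Of 56 members with a window in the RefSeq table, 8 (14.3%) held a match, beside 15.3% of the 14452 genes on the array that have a window. Over all 32851 windows of this length the share was 14.7%, and over the 72 windows of the members it was 11.1%. The 8 were Efnb2, Epha1, Epha2, Epha3, Plxnb1, Plxnd1, Robo2 and Sema4a. Of these, 7 were measured, 3 with a ratio above 0 and 4 below, from -0.17 to 0.30 on the log2 scale with a median of -0.066. Among the 41 measured members with a window and no match the median was 0.014, with 21 ratios above 0 and 20 below. A match of letters is no evidence of a binding site.

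Signals are the deposited linear intensities, and a gene is represented by its brightest probe set, that with the highest mean log2 signal of the 2 arrays. Signals below 15.2, the median of all non-control values and the floor used here, were set to 15.2, and a gene was called measured when its brightest probe set exceeded this floor on either array. Ratios are TAZ-deficient over wild type on the log2 scale. Of the 66 members, 56 were measured. The 10 others, with signals from 0.8 to 14.9, were Slit1, Robo2, Robo3, Sema6b, Plxnb3, Epha6, Epha8, Epha10, Unc5a and Plxna4os1. No fold is given for them. Of these, Slit1 and Robo3 are known chiefly from the nervous system. The other probe set of Plxnb3, with the lower mean log2 signal, was just above the floor in the wild type pool only, so that its place here depends on the choice of probe set.

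The guidance genes as a set read nearly the same in both pools. Sema3g was the only measured member at least 1.5-fold lower, and 0 members were called at least 1.5-fold higher, Unc5d having only a lower bound. Across all 12032 measured genes, 1.47% were at least 1.5-fold lower and 1.28% at least 1.5-fold higher, so that 1 of 56 and 0 of 56 were close to the background. Ratios were above 0 for 28 members and below 0 for 28, beside 46.8% above 0 among all measured genes. With the median over probe sets in place of the brightest they were above 0 for 24 and below 0 for 33, with a median log2 ratio of -0.030. The median log2 ratio of the members was 0.0033, against -0.013 for all measured genes. The median size of the log2 ratio, without its sign, was 0.12 for members and 0.11 for all measured genes. At 1.2-fold, 7 members were higher and 5 lower, beside 8.03% and 10.6% of all measured genes.

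**Figure D1:**
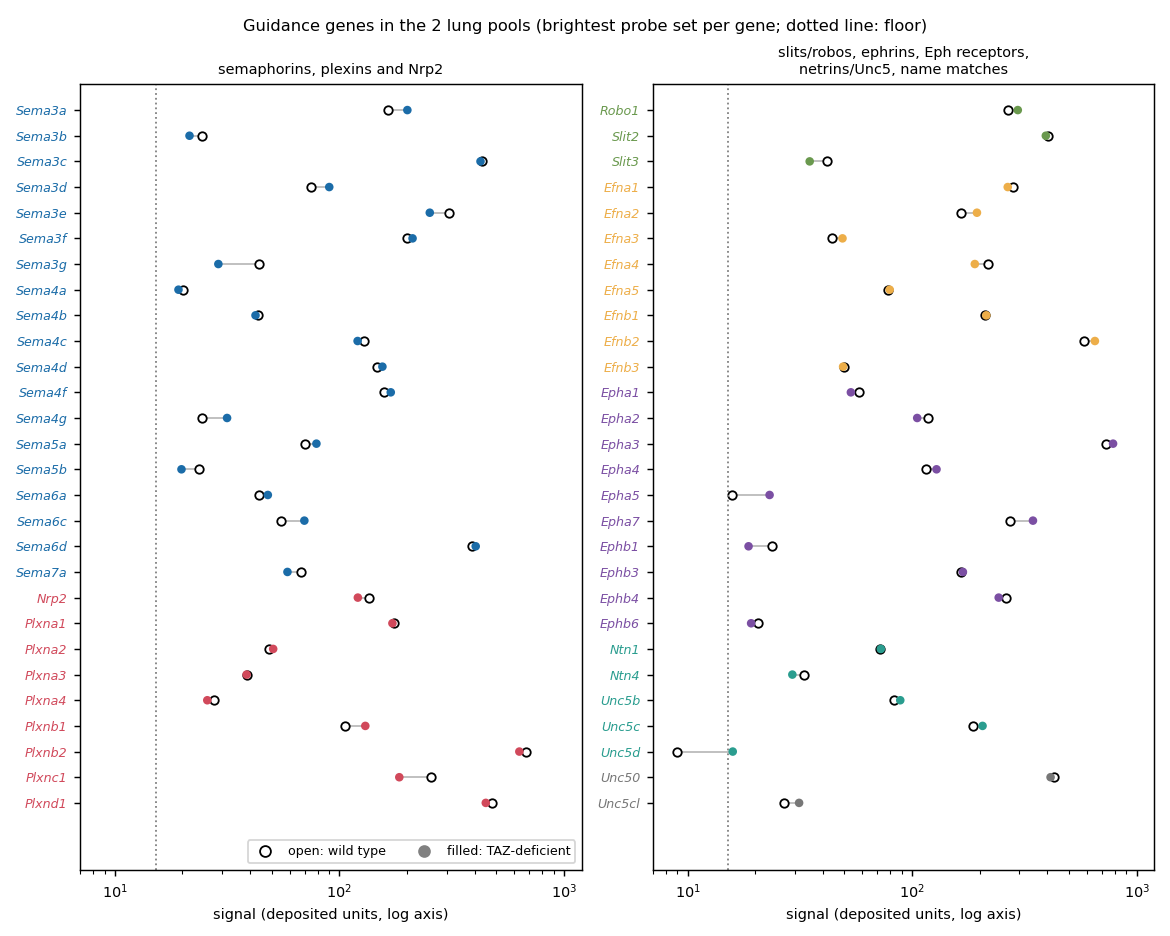
Signal of each measured member on a log axis in deposited units, open circles for the wild type pool and filled circles for the TAZ-deficient pool, coloured by family, with the floor of 15.2 as a dotted line. Pairs of circles nearly coincide for most genes, the gaps of Sema3g, Plxnc1 and Epha5 being wider, and for Unc5d the wild type circle lies below the floor.

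With these arrays, error can be read only from how far probe sets for a gene differ in their ratios. Over 5637 genes with at least 2 measured probe sets, the difference in log2 ratio between the top and the next probe set had a per-set SD (the SD of the difference over the square root of 2) of 0.20. Over the 32 members with at least 2 it was 0.19. The spread of the ratios among the 56 measured members had an SD of 0.21, about the size of this disagreement within the same 2 arrays. A log2 ratio larger in size than 2 such SDs, 0.41, was found for 3 of 56 members, namely Sema3g, Epha5 and Plxnc1. Among all measured genes the share was 7.55%. This pooled cut takes no account of signal. The SD was 0.12 where both probe sets exceeded the 75th percentile of signals, and 0.24 for other genes. The cut is therefore lenient for dim members such as Epha5 (15.8 and 23.2) and strict for bright ones. Epha7 (log2 ratio 0.35), Sema3a (0.29) and Sema3e (-0.28) did not pass it, although all were larger in size than 2 SDs of 0.12. The second probe set of Sema3a, also bright, had the opposite sign (-0.0445). The probe set disagreement leaves out variation between embryos, pools, labelling reactions and arrays.

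**Figure D2:**
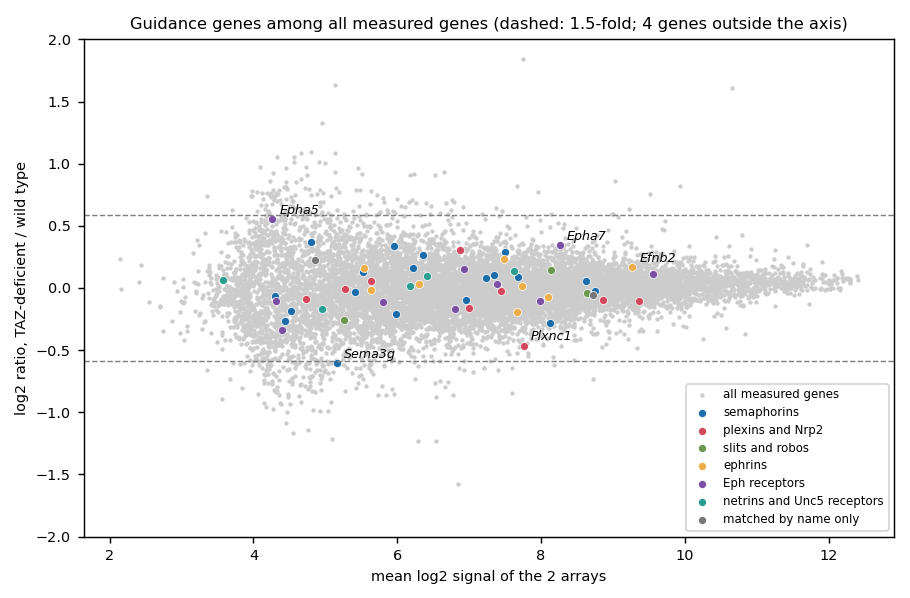
Log2 ratio (TAZ-deficient to wild type) against the mean log2 signal of the 2 arrays for all 12032 measured genes (grey) and the 56 members (coloured by family), with dashed lines at 1.5-fold and 4 genes outside the axis. The members lie within the grey cloud at every signal, and of the labelled genes Plxnc1 and Epha7 lie near its lower and upper edge.

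Among the semaphorins, the ligands of the plexins, 19 of 20 genes were measured, with 10 ratios above 0 and 9 below and a median log2 ratio of 0.059. Sema3g, a secreted semaphorin known from arterial endothelium, read 44.0 in the wild type pool and 28.9 in the TAZ-deficient pool. It was thus lower in the TAZ-deficient pool, by 1.52-fold, and it has a single probe set, so that no second reading exists. Under quantile normalization and under loess its log2 ratio was -0.58, just short of 1.5-fold, so that the call was lost. Its log2 ratio was -0.61, and 1.25% of all measured genes and 3.92% of the 1529 genes of like signal (mean log2 signal within 0.5) had a lower ratio. The 6 endothelial markers had log2 ratios from -0.20 (Tie1) to 0.23 (Kdr), with a summed signal of 2230.7 and 2102.6; their part in the Sema3g value was not tested. In whole lung, fewer cells of a type and less RNA per cell cannot be told apart.

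The other secreted semaphorins, the class 3 ligands of neuropilin and plexin complexes, differed in both directions. Sema3e, a repellent of endothelial cells that binds plexin D1 directly, read 307.3 and 252.6 (1.22-fold lower), and its other probe sets read 154.6 and 142.4, 130.1 and 122.7, and 96.4 and 94.4. All 4 were lower in the TAZ-deficient pool, with log2 ratios from -0.28 to -0.030. Sema3d, another class 3 ligand, read 74.9 and 90.1 (log2 ratio 0.27), and 26.8 and 36.8 at its second probe set. Both were higher in the TAZ-deficient pool.

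Sema3a, the founding repulsive semaphorin, read 163.8 and 200.7 (1.23-fold higher) at its brightest probe set. Its second read 158.2 and 153.4, in the opposite direction, and its dimmest 17.4 and 16.8. Sema3c, required for cardiac outflow tract formation, read 433.0 and 424.9, and Sema3f, a ligand of neuropilin 2, read 199.5 and 211.7. Sema3b was close to the floor (24.5 and 21.5). By the GRCm38.p6 annotation Sema3d and Sema3a are direct neighbours on chromosome 5, with Sema3e beyond 3 other protein-coding genes. At their brightest probe sets Sema3d and Sema3a were higher in the TAZ-deficient pool and Sema3e was lower. The other Sema3a probe sets were lower, so that its direction is unsettled.

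The membrane-bound semaphorins had ratios of both signs, 7 of 11 measured transmembrane members being above 0. Sema4g was the highest of them (24.5 and 31.6, 1.29-fold higher) and has a single probe set. Sema6c read 55.2 and 69.8 (1.26-fold higher), but its second probe set read 20.5 and 7.4, lower in the TAZ-deficient pool. That second set passed the floor in the wild type pool only, which fixed its sign. Sema6d, a ligand of plexin A1, read 388.2 and 404.5. Sema4d, the ligand of plexin B1, read 146.7 and 155.4, and Sema4c, a ligand of plexin B2, read 129.2 and 120.5. For Sema5a, a semaphorin with thrombospondin repeats, 70.5 and 79.0 and then 56.5 and 68.8 were read at the brighter probe sets and 34.5 and 21.9 at a dimmer. That dimmer set was 1.58-fold lower while the others were higher, so that the gene has no single direction here. Sema5b, near the floor, read 23.8 and 19.8 (log2 ratio -0.27). Sema7a, the lipid-anchored semaphorin and a ligand of plexin C1, read 67.7 and 58.7 (1.15-fold lower).

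Among plexins and Nrp2, the receptors of these ligands, 9 of 10 were measured and 7 had a ratio below 0, with a median log2 ratio of -0.092. Plxnc1, the receptor of Sema7a, read 255.1 in the wild type pool and 184.8 in the TAZ-deficient pool, 1.38-fold lower. The other measured probe sets read 186.2 and 159.4, 72.3 and 59.5, 39.8 and 35.7, and 39.4 and 32.8. All 5 were lower in the TAZ-deficient pool, with log2 ratios from -0.47 to -0.16, while the sixth was below the floor on both arrays (0.5 and 0.4). Of 2451 genes of like signal, 0.530% had a lower ratio than the brightest Plxnc1 probe set. Plexin C1 is also found on leukocytes, whose 4 markers had a summed signal of 518.2 and 484.0, with log2 ratios from -0.37 (C1qa) to 0.25 (Ptprc); their part in the Plxnc1 value was not tested.

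By their brightest probe sets, the remaining plexins were within 1.2-fold apart from Plxnb1. Plxnb1, the receptor of Sema4d, read 105.7 and 130.4 (1.23-fold higher), but 89.1 and 87.4 at its second probe set. Plxnb2, a plexin of epithelia, read 680.0 and 632.8, and Plxnd1, the endothelial receptor of Sema3e, read 479.0 and 448.6. Both have a single probe set and a ratio below 0. Plxna1 read 175.6 and 172.2 at its brightest probe set and 41.3 and 22.2 at the other, 1.86-fold lower, and the disagreement leaves its size unsettled. Plxna2 (48.7 and 50.7), Plxna3 (38.8 and 38.6) and Plxna4 (27.5 and 25.8) differed by at most 1.07-fold, the sign of Plxna3 being above 0 under quantile normalization, loess and median centring. Nrp2, the neuropilin of lymphatic and venous endothelium, read 135.2 and 120.8, and 44.5 and 45.2, and 41.0 and 41.6 at its other measured probe sets, which had the opposite sign.

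**Figure D3:**
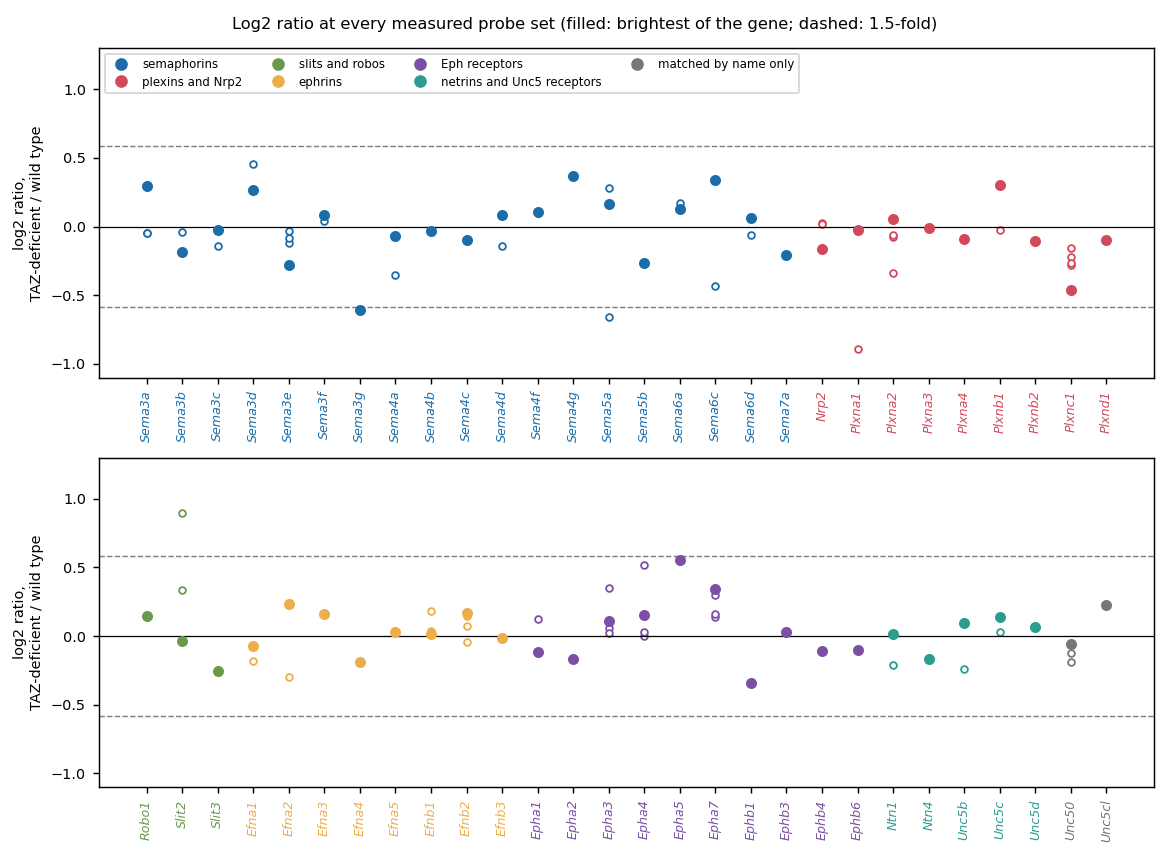
Log2 ratio (TAZ-deficient to wild type) at every measured probe set of each measured member, the filled point being the brightest probe set and open points the others, coloured by family, with dashed lines at 1.5-fold. All points of Plxnc1 and of Sema3e lie below 0 and all points of Epha3, Epha4 and Epha7 above 0, while those of Slit2, Sema5a, Sema6c and Efna2 lie on both sides.

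Of the slits, Slit2 read 405.1 and 394.2 at its brightest probe set, within 1.03-fold. Its 2 dimmer probe sets read 33.3 and 42.0, and 20.6 and 38.3, the last 1.86-fold higher and the only member probe set called at least 1.5-fold higher at this floor. Slit2 therefore had no common direction across its probe sets. Slit3, another secreted slit, read 41.8 and 35.0 (1.19-fold lower) at its only probe set. Robo1, the slit receptor known from lung mesenchyme, read 267.0 and 295.7 (1.11-fold higher), while its 2 other probe sets were below the floor. Over all member probe sets, 1 of 111 measured was at least 1.5-fold higher and 3 were lower, beside 1.62% and 1.81% of all 21294 measured probe sets with 1 gene. The 3 lower probe sets belonged to Sema3g, Plxna1 and Sema5a.

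All 8 ephrins were measured, and all 8 were within 1.2-fold, with 5 ratios above 0 and 3 below. Efnb2, the B-type ephrin of arterial endothelium, read 580.3 and 651.9 (1.12-fold higher), and its other probe sets read 282.8 and 298.1, 97.3 and 94.4, and 61.7 and 68.2. Of these 4 probe sets 3 were higher in the TAZ-deficient pool. Efnb1, a B-type ephrin of craniofacial development, read 212.0 and 214.1, and Efnb3 49.8 and 49.3, the latter having a ratio above 0 under quantile normalization and loess. Efna1, the ligand of EphA2 induced by inflammatory cytokines in endothelium, read 280.3 and 266.7, and 275.1 and 242.2. Both were slightly lower in the TAZ-deficient pool.

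Efna2 had the largest ratio of the ephrins and the least settled. Its brightest probe set read 165.6 and 194.5 (1.17-fold higher), while the other read 36.7 and 29.9, lower in the TAZ-deficient pool. Efna4 read 217.2 and 190.3 (1.14-fold lower) and Efna3 43.8 and 49.0 (1.12-fold higher). With Efna1 they are direct neighbours on chromosome 3, and the 3 did not share a direction. Efna5 read 77.9 and 79.5.

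Of 13 Eph receptor genes 10 were measured, 5 with a ratio above 0 and 5 below. The ratio was above 0 for 4 of 6 measured EphA receptors and for 1 of 4 EphB receptors, a division by type that was noticed after the values were seen. Epha7 read 271.7 in the wild type pool and 345.4 in the TAZ-deficient pool, 1.27-fold higher. Its other probe sets read 116.5 and 128.5, 84.5 and 103.8, and 17.5 and 19.6. All 4 were higher in the TAZ-deficient pool, with log2 ratios from 0.14 to 0.35, and 0.968% of 2169 genes of like signal had a higher ratio than the brightest. Epha7, like the other EphA receptors, binds A-type ephrins.

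Epha3, a receptor of mesenchymal cells, read 727.2 and 785.4, 423.3 and 440.8, 232.5 and 235.9, and 95.4 and 121.7 at its 4 probe sets. Each was higher in the TAZ-deficient pool, by a log2 ratio of 0.021 to 0.35. Epha4, which binds ephrins of both types, read 115.5 and 128.5, 87.2 and 87.3, 37.8 and 38.5, and 9.7 and 21.8. Its ratios were also above 0 at all 4 measured probe sets, the last with a wild type signal under the floor, which fixed its sign. Epha5, chiefly a neural receptor, read 15.8 and 23.2 (1.47-fold higher), barely above the floor, while its 3 other probe sets were below the floor on both arrays. Epha2, a receptor of epithelia, read 118.3 and 105.4 (1.12-fold lower), and Epha1 57.8 and 53.4.

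Of the 4 EphB receptors 3 were within 1.2-fold. Ephb4, the venous receptor of ephrin-B2, read 261.7 and 243.1 (1.08-fold lower), Ephb3 165.1 and 168.4, and Ephb1, near the floor, 23.7 and 18.7 (1.27-fold lower). Ephb6, a receptor without kinase activity, read 20.6 and 19.2. Each of these 4 genes has a single probe set.

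Of the 5 measured netrins and Unc5 receptors, the 4 with both signals above the floor were within 1.2-fold. Ntn1, the netrin of the basement membrane and midline, read 71.9 and 72.6, and Ntn4, a laminin-binding netrin, read 32.9 and 29.3 (1.12-fold lower). Unc5c read 187.5 and 206.0 (1.10-fold higher), and 157.8 and 160.8 at its second probe set. Unc5b, the vascular netrin receptor, read 82.8 and 88.6, with 24.3 and 20.6 at a dimmer probe set of the opposite sign. Unc5d crossed the floor only in the TAZ-deficient pool (9.0 and 15.9), which gives only a lower bound of 1.05-fold. The name matches Unc50 (430.0 and 413.8) and Unc5cl (26.8 and 31.4) were within 1.2-fold as well.

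Ligands and receptors had similar counts: 16 of 31 measured ligands and 11 of 23 measured receptors had a ratio above 0, with median log2 ratios of 0.014 and -0.0075. For known partners, both sides were lower in the TAZ-deficient pool for Sema7a and Plxnc1 (log2 ratios -0.21 and -0.47) and for Sema3e and Plxnd1 (-0.28 and -0.095). For Efnb2 and Ephb4 the signs were opposite (0.17 and -0.11), and likewise for Slit2 and Robo1 at their brightest probe sets (-0.039 and 0.15). The dimmer Slit2 probe sets were higher in the TAZ-deficient pool, so that the contrast with Robo1 depends on the probe set. These pairs are examples chosen after the values were seen. Except for those of Sema3e and Plxnc1, these ratios were smaller than the pooled probe set disagreement of 0.20 or, for Sema7a, close to it. The disagreement was 0.12 among bright genes, and the ratios of Efnb2 (0.17) and Robo1 (0.15) were not below that.

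Agreement of probe sets set a few members apart from the rest. Among 32 members with at least 2 measured probe sets, all had the same sign in 18, which is 56.2% beside 45.6% of 5637 genes. Of the 7 members with at least 4, Plxnc1, Sema3e, Epha3, Epha4 and Epha7 had the same sign throughout and Efnb2 and Plxna2 did not, beside 18.6% of 876 genes with at least 4. The 876 genes were not matched to the members for signal. Probe sets of a gene share the pools and the arrays, so that their agreement is no replicate of the genotype. The agreement is of sign alone, the log2 ratios of Epha4 running from 0.0017 to 0.52. Of these 5 genes none was called at 1.5-fold, the dimmest measured Epha4 set (9.7 and 21.8) having only a lower bound of 1.43-fold. That set passed the floor in the TAZ-deficient pool only, which fixed its sign, and without it Epha4 has fewer than 4 measured sets. The same holds for Plxna2, whose dimmest set (19.2 and 11.9) passed the floor in the wild type pool only. Among the 18, Sema6a (10.7 and 17.1) and Sema3b (15.6 and 8.6) also have a set that passed the floor in a single pool, with its sign fixed likewise.

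**Figure D4:**
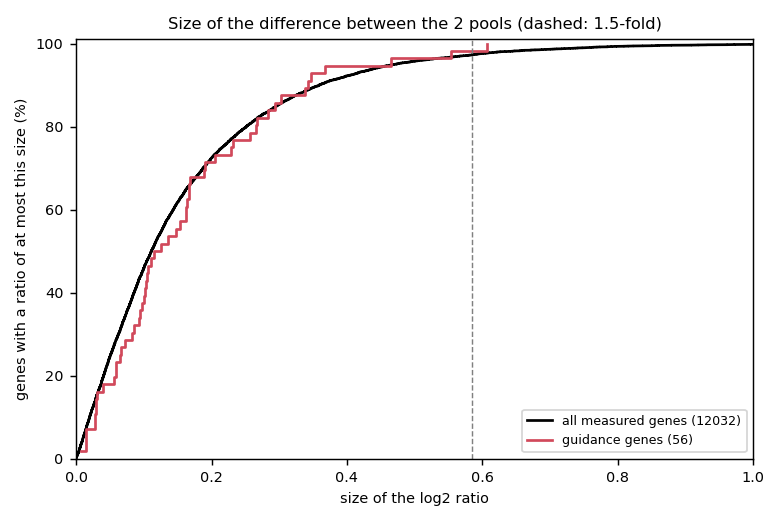
Share of genes, in percent, with a log2 ratio of at most the size on the horizontal axis, for the 56 measured members (red) and all 12032 measured genes (black), with a dashed line at 1.5-fold. The curves run close together, with median sizes of 0.12 and 0.11, and Sema3g is the only member to the right of the dashed line.

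Other genes of guidance signalling, a list of 55 co-receptors, further ligands and cytoplasmic mediators, were also near wild type signal. Of 50 measured, 2 were at least 1.5-fold higher and 0 lower, beside the 1.28% and 1.47% of all measured genes, and the median log2 ratio was 0.045. Ntng1, a lipid-anchored netrin relative, read 18.5 and 31.0 (1.68-fold higher), and 17.0 and 19.5 at its next probe set. A further set (14.4 and 21.8) was above the floor in the TAZ-deficient pool only, which fixed its sign. Vav3, a guanine nucleotide exchange factor downstream of Eph receptors, read 44.2 and 71.6 (1.62-fold higher), but 38.9 and 39.7, and 34.7 and 35.6 at its other probe sets. Nrp1, the main neuropilin of endothelium, read 579.6 and 605.8, the endothelial Robo4 124.5 and 123.9, and the netrin receptor neogenin (Neo1) 350.9 and 366.8. Dcc, the netrin receptor of axons, crossed the floor only in the TAZ-deficient pool (13.3 and 21.5).

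Markers of nerve, the tissue these families are best known from, ranged in signal from one gene to the next. Of 10 nerve and neural crest genes with a probe set, 6 were measured, with a summed signal of 310.5 and 291.7, and Tubb3, Elavl4, Prph and Nefl were below the floor on both arrays. Uchl1, also a marker of neuroendocrine cells, read 147.2 and 153.3. The growth cone genes Stmn2 and Gap43 read 46.1 and 32.5, and 51.4 and 48.5, the neurofilament gene Nefm 20.5 and 22.4, Ret 25.5 and 22.4, and Sox10 19.8 and 12.6. Smooth muscle markers had ratios below 0 (4 of 4, median log2 ratio -0.42, summed signal 3504.9 and 3272.3) and embryonic globins above 0 (3 of 3, median 1.63). The part of these tissues in the guidance gene values was not tested.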

How the data were processed

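Whole lung RNA was hybridised to an Affymetrix mouse 430 2.0 array. The table deposited by the authors holds linear intensity values, 1 per probe set and array, made with GCOS and MAS5 (versions not given) per the submitters' processing notes. Both arrays have a mean of 100.0 once the bottom and top 2% of values are removed, which shows a global scaling. Detection calls were not used here. The genome build behind the probes is not given in the sources used here.

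Of 45101 probe sets, 34945 named 1 gene, 932 several genes and 9160 none, besides 64 controls. Only the first were used. For 34741 of them the symbol was taken from GRCm38.p6 through the Entrez identifier, whether or not it differed from the platform's. Ratios were computed with numpy 2.4.6 and pandas 2.3.3, and loess with statsmodels 0.14.6, and the counting was tested on simulated data. The fold is a lower bound where a signal is at or below the floor. With 1 array per group nothing was tested, and the number of arrays limits the precision.

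Signals are given for every member at least 1.5-fold different, for the 2 brightest and the 2 with the largest ratio in each family, with all probe sets for members at least 1.5-fold different; other members are examples of a role. From the further guidance genes, those at least 1.5-fold different were named. Ephb2 was not analysed here. The members and lists were chosen with earlier results of these data known. Alternatives were the floor at the 25th (4.3) or 75th percentile (106.3), log2(signal + 16), quantile normalization, loess, median centring, the median over probe sets, leaving out shared probe sets, and all genes without the filter.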

Additional observations from a re-analysis of the deposited data

How the results depend on the processing

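No paired analysis was possible because each group is 1 array, and no replicate could be left out. With the floor at the 25th percentile, 2 members were at least 1.5-fold higher (Robo3, Unc5d) and 2 lower (Plxnb3, Sema3g), beside 5.24% and 7.14% of all measured genes, and the median log2 ratio of slits and robos was 0.30. The count lower was 0 for a floor at the 75th percentile, with log2(signal + 16), under quantile normalization and under loess. The shares of all measured genes at least 1.5-fold lower were 0.169%, 0.615%, 1.34% and 1.34% in that order. At the 75th percentile floor 29 members were measured and Sema3g was not among them. With log2(signal + 16) the log2 ratio of Sema3g was -0.42. Under quantile normalization and loess Sema3g was just under 1.5-fold (log2 ratio -0.58 against the threshold of 0.585 in size). In the other alternatives run, Sema3g was the only member called. Leaving out the 3 name matches, an alternative chosen after seeing the data, changed neither count. The plexin median stayed below 0 in all alternatives. The other family medians were within 0.20 of their main value apart from the slit value above; with the median over probe sets the semaphorin (-0.045) and netrin (-0.070) medians were below 0 and the slit (0.15) and Eph (0.018) medians above, as were the latter pair for a floor at the 75th percentile (0.054 and 0.070) and the Eph median without shared probe sets (0.070). As the median over probe sets, ratios of the opposite sign were found for Slit2 (0.33), Efna2 (-0.032), Unc5b (-0.070), Sema3a (-0.0445) and Nrp2 (0.021). The sign also changed for Sema6c, Plxna2, Sema4d, Ntn1 and Epha1. Ratios nearer 0 were found, among others, for Plxnc1 (-0.26), Plxnb1 (0.14) and Sema3e (-0.10). Signals near the floor limit Epha5, whose log2 ratio was 0.30 with log2(signal + 16).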
